A study of Mus musculus with 12 samples.

Results

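The 7 genes described here, Malat1, Neat1, Meg3, Rian, Mirg, Miat and Snhg11, were grouped as abundant long noncoding RNAs of neurons, and many of them are known to stay in the nucleus. Bulk counts do not show which cells make them, and they were not equally abundant. Per kb of exon, Neat1 was at rank 131 and Miat at rank 268 among 11141 long noncoding RNA genes. The 7 genes were chosen by symbol and followed by Ensembl ID through the gene counts of cerebellar RNA from 12 mice, and they make up 7 of the 56941 genes in each count table. All 7 passed edgeR's filter on low counts, as did 20341 genes in all, and each had at least 282 counts in every library.

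The study asked whether voluntary running alters the course of spinocerebellar ataxia type 1 (SCA1), which is caused by a repeat expansion in Atxn1. SCA1 mice were heterozygous Atxn1154Q/2Q knock-ins, with an expanded glutamine repeat in 1 copy of Atxn1, and WT mice were C57BL/6J littermates without it. Each group held 3 mice of 16 weeks, namely WT sedentary (mice 116, 117 and 192), WT exercise (121, 197 and 201), SCA1 sedentary (16, 194 and 195) and SCA1 exercise (55, 122 and 198). Exercise mice had a running wheel for 12 weeks from week 4 and lived alone, whereas sedentary mice lived in groups without a wheel, so running and solo housing cannot be told apart. The knock-in allele acts in all cells that use the Atxn1 promoter. RNA was depleted of ribosomal RNA rather than selected for a poly(A) tail, so transcripts without a tail are counted too.

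Noncoding RNAs of this kind work as RNA. Malat1 gathers in nuclear speckles, the stores of splicing factors, and Neat1 is the scaffold of paraspeckles. Meg3, Rian and Mirg come from the maternal copy of the imprinted Dlk1-Dio3 domain, whose paternal copy expresses Dlk1, Rtl1 and Dio3, and the introns and exons of Rian and Mirg carry small nucleolar RNAs and microRNAs. Miat, also called Gomafu, forms nuclear spots of its own in neurons, and Snhg11 is a host gene of small nucleolar RNAs.

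On GRCm39 with GENCODE M39, Malat1 (ENSMUSG00000092341) lies on chromosome 19 from 5845717 to 5853602 and Neat1 (ENSMUSG00000092274) on the same chromosome from 5874736 to 5897132, both on the minus strand and 21.1 kb apart. Meg3 (ENSMUSG00000021268) lies on chromosome 12 from 109506877 to 109538165, Rian (ENSMUSG00000097451) from 109570242 to 109628150 and Mirg (ENSMUSG00000097391) from 109696198 to 109715898, all on the plus strand within 209 kb. Miat (ENSMUSG00000097767) lies on chromosome 5 from 112361094 to 112377261 on the minus strand, and Snhg11 (ENSMUSG00000044349) on chromosome 2 from 158217558 to 158228071 on the plus strand.

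Malat1 and Neat1 share an unusual 3′ end. In textbook accounts Malat1 and the long form of Neat1 are cut by RNase P instead of being polyadenylated there. A triple helix of U-rich motifs around an A-rich tract protects the new end. The gene counts used here do not separate the forms of Neat1. Both ends are shown from GRCm39 because they are what lets RNAs that end there last without a tail. Capitals mark the 3 stretches of at least 10 bases that the last 500 bases of both genes share, which are TTTCTTTTCCTGA and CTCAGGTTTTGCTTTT, each holding a U-rich motif, and AAAAAGCAAAA from the A-rich tract. The Malat1 stretch is chr19:5845952-5846105 and the Neat1 stretch chr19:5874736-5874837, both read 5′ to 3′ on the minus strand.
Malat1: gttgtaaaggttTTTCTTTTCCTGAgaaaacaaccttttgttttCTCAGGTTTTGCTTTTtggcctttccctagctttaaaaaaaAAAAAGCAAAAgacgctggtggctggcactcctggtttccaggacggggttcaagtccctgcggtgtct
Neat1: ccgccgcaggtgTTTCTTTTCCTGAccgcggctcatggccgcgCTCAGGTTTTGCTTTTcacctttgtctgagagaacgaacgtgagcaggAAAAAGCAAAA
In Malat1 the sequence after the capitals begins the small tRNA-like RNA that RNase P releases, and 293 bases follow AAAAAGCAAAA to the annotated end. In Neat1 the annotation ends at that motif, with 0 bases after it. All 3 stretches, searched on the gene's own strand, occurred in the last 500 bases of 2 of the 6505 long noncoding RNA genes at least that long on chromosomes 2, 5, 12 and 19 (0.0307%), and these 2 were Malat1 and Neat1. Singly, TTTCTTTTCCTGA and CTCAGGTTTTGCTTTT were each found in those 2 genes alone and AAAAAGCAAAA in 11 (0.169%). The letters were read from Malat1 and Neat1 themselves, so these shares only describe how rare the end is.

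Miat carries a repeat that matches the consensus of the intron branch point and is known to bind the splicing factor SF1. TACTAAC occurred 6 times on the gene's own strand within 689 bases, all 6 copies within annotated exons. A first copy stands alone, and the other copies form the 2 clusters shown here with TACTAAC in capitals, from chr5:112365173-112365228 and chr5:112364616-112364680 of GRCm39, minus strand.
Miat, upstream cluster: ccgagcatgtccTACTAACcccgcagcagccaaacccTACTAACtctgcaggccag
Miat, downstream cluster: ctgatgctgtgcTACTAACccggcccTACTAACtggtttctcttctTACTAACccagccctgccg
Of 6265 long noncoding RNA genes of at least 689 bases on chromosomes 2, 5, 12 and 19, 28.3% held TACTAAC at least once, and 1, Miat, held 6 or more copies in a window of that length. The window and the number of copies were read from Miat itself, so Miat was bound to be counted and the share only describes how rare the cluster is. Over their whole length, Rian held 2 copies, Neat1 and Mirg 1 copy each, and Malat1, Meg3 and Snhg11 0.

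The Meg3 promoter is shown because Meg3 had the smallest p of the 7 genes between sedentary groups. The sequence is from RefSeq on GRCm38.p6, chr12:109540746-109541045, plus strand, and runs from 250 bases before to 50 after the annotated start. Capitals mark TGACGTCA, the full cAMP response element to which CREB is known to bind, and TATATAA, a form of the core promoter box that binds TBP.
Meg3 promoter: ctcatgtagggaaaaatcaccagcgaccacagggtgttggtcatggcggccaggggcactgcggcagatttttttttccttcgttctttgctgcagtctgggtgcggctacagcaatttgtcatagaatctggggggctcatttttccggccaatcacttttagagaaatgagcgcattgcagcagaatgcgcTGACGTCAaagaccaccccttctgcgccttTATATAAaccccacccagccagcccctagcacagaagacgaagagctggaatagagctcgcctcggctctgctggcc
Searched on both strands, TGACGTCA was present in 1.79% and TATATAA in 3.24% of 32851 RefSeq promoters of the same length. The second annotated promoter of Meg3 and those of Malat1, Rian, Mirg, Miat and Snhg11 held neither motif, and no promoter of Neat1 was matched. A match of letters shows no binding.

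Libraries held 55059831 to 69065648 read pairs, of which 20556802 to 32127508 were counted on genes of the reverse strand. Mice 16 (SCA1 sedentary) and 55 (SCA1 exercise) stood apart from the other 10. Read pairs that mapped to several places made up 6.38% and 6.33% of their libraries, compared with 3.46% or less elsewhere, and read pairs on no gene 39.3% and 44.1%, compared with 46.0% to 58.7%. The summed level of 5 brainstem markers (Slc6a5, Hoxb5, Hoxa5, Hoxb3 and Slc17a6) was 331 and 233 CPM (counts scaled to a library of 1e+06 counts, with library sizes normalized by TMM), and 49.7 to 77.1 CPM in the other 10. Comparisons of the 7 RNAs that rest on these mice are given with and without them. Granule and Purkinje cell markers were at 62.9 CPM or more in every library and the forebrain markers at 5.12 CPM or less, as a cerebellar dissection would give. Xist was at 1156 to 1581 CPM in 4 libraries (WT exercise 201, SCA1 sedentary 194 and SCA1 exercise 55 and 122) and at 1.1 CPM or less in the rest, so all 3 WT sedentary mice were male by this measure.

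Together the 7 RNAs took 1.40% to 2.54% of all counts and 46.8% to 57.7% of those on long noncoding RNA genes. Malat1 alone supplied 67.6% to 83.9% of their counts. By CPM Malat1 ranked 1, Meg3 3, Snhg11 4, Rian 7, Neat1 19, Mirg 25 and Miat 55 among 11141 long noncoding RNA genes, and per kb of exon Neat1 was at rank 131 and Miat at rank 268. The smallest count behind any value was 282, for Miat, and Malat1 had at least 269159 counts per library.

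Levels of different genes were compared per kb of annotated exon. In WT sedentary mice Malat1 was at 2215 ± 102 CPM per kb (SD, n = 3), Snhg11 at 144 ± 30.5, Meg3 at 94.4 ± 18.7, Rian at 18.8 ± 0.652, Mirg at 8.63 ± 1.07, Neat1 at 5.64 ± 1.03 and Miat at 2.13 ± 1.16 CPM per kb. None of these neighbours in the order overlapped in these 3 mice. The order was the same in WT exercise mice, where Snhg11 and Meg3 overlapped. In SCA1 sedentary mice Meg3, at 164 ± 30.2 CPM per kb, came before Snhg11, at 154.4 ± 27.2, and these 2 overlapped. In both SCA1 groups Neat1 and Miat overlapped, since Miat ranged from 1.73 to 12.7 CPM per kb in sedentary and from 1.32 to 8.12 in exercise mice. Over all 12 mice the highest level was 1.44 times the lowest for Rian, 1.56 times for Snhg11, 1.64 times for Neat1, 1.73 times for Mirg, 2.17 times for Malat1, 2.56 times for Meg3 and 10.8 times for Miat.

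**Figure D1:**
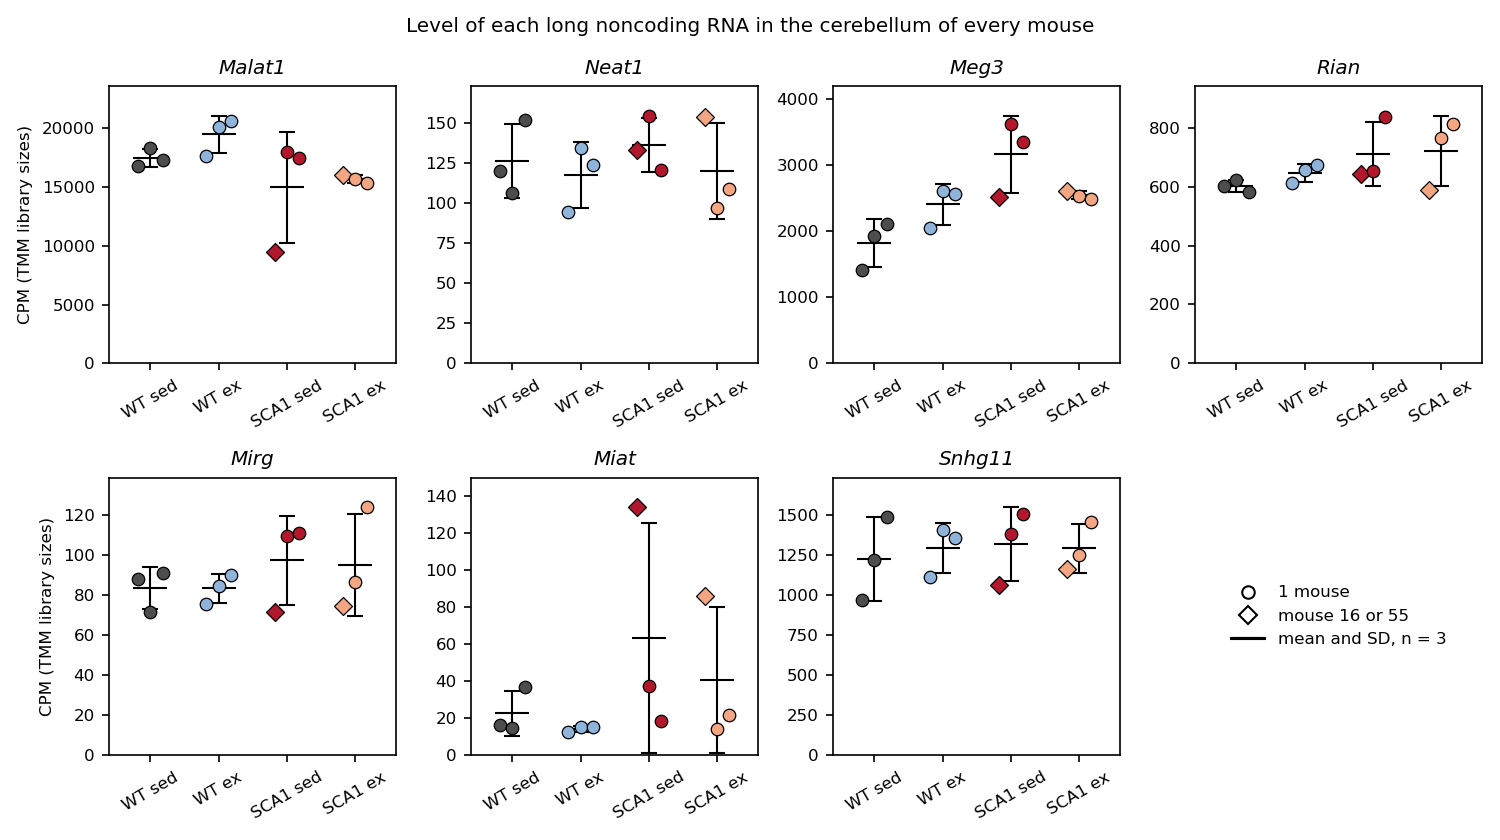
CPM of each of the 7 long noncoding RNAs (vertical axes from 0) in the 4 groups; each point is 1 mouse, diamonds are mice 16 and 55, and bars give the mean and SD of 3 mice. Meg3 is higher in all 3 SCA1 sedentary mice than in all 3 WT sedentary mice, and the highest Miat values belong to mice 16 and 55.

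The comparison of sedentary mice addresses the mutation without a wheel. Here 0 of the 7 RNAs passed the study's thresholds (adjusted p under 0.05 and absolute log2FC over 0.5) in edgeR's quasi-likelihood test, beside 0.0344% of all genes tested. Meg3 came nearest and was higher in every SCA1 sedentary mouse. Of the 7 log2FC (SCA1 relative to WT), 6 were above 0 and 1 was below. The median log2FC of the 7 was 0.22, and that of all genes tested 0.02. At an unadjusted p under 0.05 the number was 1 of 7, beside 10.1% of all genes, and 3 of 7 without mice 16 and 55, beside 20.2%.

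Meg3, the maternally expressed RNA known as a growth suppressor that acts with p53 and with Polycomb proteins, was at 1419, 1934 and 2112 CPM in WT sedentary mice 116, 117 and 192. In SCA1 sedentary mice 16, 194 and 195 it was at 2514, 3632 and 3359 CPM. The groups did not overlap, and the SCA1 mouse nearest to WT was mouse 16. The means were 1822 ± 360.1 and 3168 ± 583 CPM (SD, n = 3). The log2FC was 0.80 (standard error, SE, 0.18, unadjusted p = 0.000672, edgeR adjusted p = 0.162), and the two-sided exact permutation test of 3 mice against 3 gave p = 0.1, the smallest it can give.

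The adjusted p of Meg3 depended on the fit more than its fold change did. It passed the threshold with DESeq2 on all 12 libraries (log2FC 0.80, adjusted p = 0.00241), where 0.572% of 35145 genes were called. It also passed with edgeR without mice 16 and 55 (log2FC 0.96, adjusted p = 0.00858; 1% of genes called) and with edgeR when the share of read pairs on no gene was a covariate (log2FC 0.77, adjusted p = 0.00828; 2.16% called). With the brainstem marker sum as a covariate, added after the values were seen, edgeR gave a log2FC of 0.85 and an adjusted p of 0.0194 (0.929% called). With the summed level of chromosome Y genes as a covariate for sex, the log2FC was 0.74 and the adjusted p was 0.295 with edgeR. With edgeR on the 6 sedentary libraries alone it was 0.80 with an adjusted p of 0.659.

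Marker lists of cerebellar neurons moved with the same comparison. With all mice 1 gene of them, Calb1 of Purkinje cells, passed the thresholds, beside 0.0344% of all genes. Of 5 Purkinje cell markers 5 were lower in SCA1 sedentary mice, with sums of 3849 to 5259 CPM compared with 6457 to 7265 CPM in WT sedentary mice. Of 5 granule cell markers 5 were lower, with sums of 1611 to 2599.5 and 2657 to 3234 CPM. Other marker lists moved as well with all mice, with 0 past the thresholds. Higher were 5 of 5 for brainstem, choroid plexus and oligodendrocyte and 4 of 5 for microglia. Lower were 5 of 5 for endothelium and 4 of 5 for Bergmann glia and astrocytes. In bulk tissue fewer cells of a type and less RNA per cell cannot be told apart, and the part of cell composition in the level of Meg3 was not tested.

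Rian was at 602, 623 and 581 CPM in the WT sedentary mice and at 643, 653 and 837 CPM in the SCA1 sedentary mice. These groups did not overlap either, although SCA1 mice 16 and 194 lay close to WT mouse 117, and mouse 195 lay well above the other 5. The log2FC was 0.24 (SE 0.14, edgeR adjusted p = 0.591), with p = 0.1 by the exact permutation test. Meg3 and Rian were thus 2 of 7 with every SCA1 sedentary mouse above every WT sedentary mouse, beside 5.6% of all genes tested.

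Mirg, the RNA farthest along the domain and the host of a large microRNA cluster, was at 87.7, 71.6 and 90.8 CPM in WT sedentary and at 71.4, 109 and 111 CPM in SCA1 sedentary mice. Mouse 16 had the lowest value of the 6, and the other 2 SCA1 mice the highest. The log2FC was 0.22 (SE 0.20, edgeR adjusted p = 0.736), and the groups overlapped.

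Malat1 was at 16755, 18336 and 17319.9 CPM in WT sedentary and at 9504, 17963 and 17439 CPM in SCA1 sedentary mice. SCA1 mice 194 and 195 lay within the WT range. The log2FC was −0.22 (SE 0.21, edgeR adjusted p = 0.740), and it was 0.02 without mouse 16 and 0.04 without mice 16 and 55.

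Neat1 was at 120.2, 107 and 152 CPM in WT sedentary and at 134, 155 and 121 CPM in SCA1 sedentary mice, and the groups overlapped almost fully. Its log2FC was 0.11 (SE 0.19, edgeR adjusted p = 0.879). Snhg11 was at 969, 1216 and 1489.7 CPM and at 1059, 1382 and 1509 CPM, with a log2FC of 0.10 (SE 0.18, edgeR adjusted p = 0.880). For both genes the genotypes overlapped.

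Miat had the widest spread. It was at 16.3, 14.5 and 36.5 CPM in WT sedentary mice 116, 117 and 192 and at 134, 37.3 and 18.2 CPM in SCA1 sedentary mice 16, 194 and 195. The groups overlapped, and mouse 16 alone stood above the rest. The log2FC was 1.49 (SE 0.73, unadjusted p = 0.0621, edgeR adjusted p = 0.523), and 0.33 with an adjusted p of 0.621 without mice 16 and 55.

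**Figure D2:**
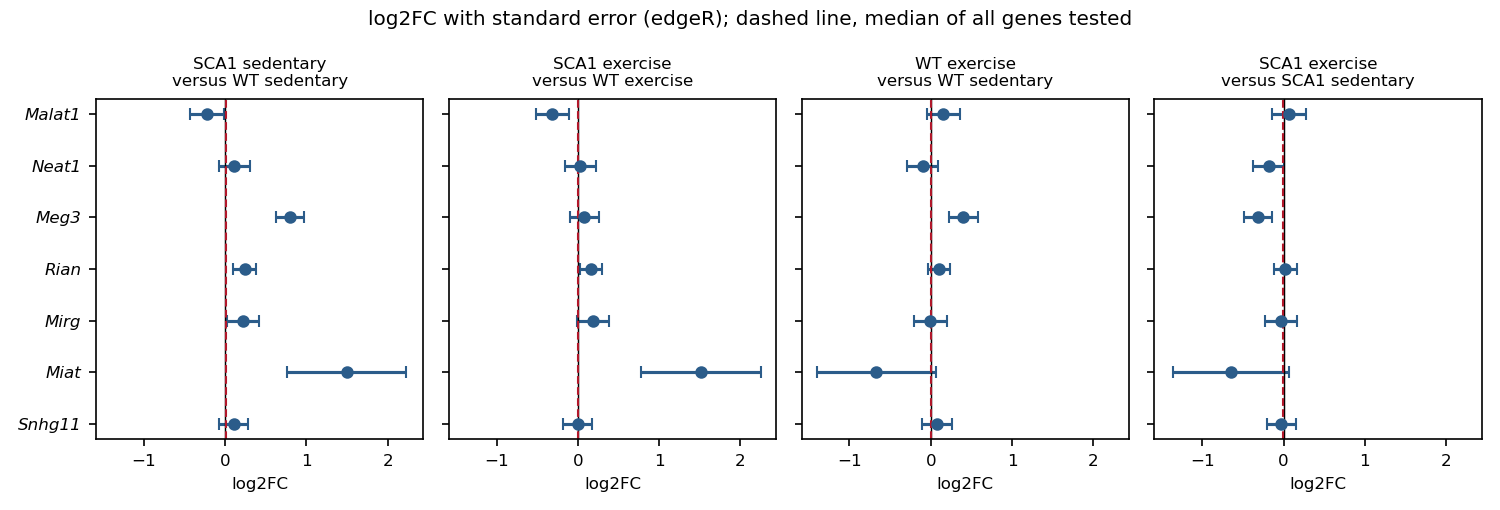
log2FC (horizontal axis) of the 7 RNAs in 4 comparisons; points are edgeR estimates, bars their standard errors, and the dashed line the median of all genes tested. Meg3 lies at 0.80 between sedentary groups and at 0.08 between exercise groups, and the Miat bars are the widest in all 4.

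Between SCA1 exercise and WT exercise mice 0 of the 7 passed, beside 0% of all genes. At an unadjusted p under 0.05 it was also 0 of 7 with edgeR and with DESeq2 on all mice, beside 2.93% with edgeR. That count was 3 of 7 with edgeR without mice 16 and 55, beside 6.88% of all genes. With edgeR on the exercise groups alone it was 1 of 7, where 1590 of 19340 genes had such a p. Malat1 was the only one of the 7 without overlap. It was at 17652, 20140 and 20632 CPM in WT exercise mice 121, 197 and 201 and at 16040.4, 15662 and 15318 CPM in SCA1 exercise mice 55, 122 and 198. All 3 SCA1 values were lower and close together, and 6.92% of all genes were lower without overlap. The log2FC of Malat1 was −0.31 (SE 0.21, edgeR adjusted p = 0.960; exact permutation p = 0.1).

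Meg3 was at 2048, 2609.7 and 2563 CPM in WT exercise and at 2614, 2534 and 2489 CPM in SCA1 exercise mice. Mice 122 and 198 lay inside the WT range and mouse 55 at its upper end. The log2FC was 0.08 (SE 0.18, edgeR adjusted p = 0.966). Rian was at 612, 656 and 672 CPM and at 587, 765 and 814 CPM, with mouse 55 below and the other 2 SCA1 mice above the WT range, and its log2FC was 0.16 (edgeR adjusted p = 0.960).

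Miat was at 12.4, 14.9 and 15.0 CPM in WT exercise and at 85.6, 13.9 and 21.5 CPM in SCA1 exercise mice. Mouse 55 alone was far above the others. The log2FC of 1.52 (SE 0.74, edgeR adjusted p = 0.960) was 0.33 without mice 16 and 55. For Neat1, Mirg and Snhg11 the log2FC lay between −0.00137 and 0.19, and the groups overlapped.

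Over both activity groups, in 6 SCA1 and 6 WT mice, 0 of the 7 passed, beside 0.118% of all genes, and 2 had an unadjusted p under 0.05, beside 9.81%. These were Meg3 and Miat. The number was 4 of 7 without mice 16 and 55, beside 11.7% of all genes. Meg3 was at 2857 ± 504 CPM in SCA1 and 2114 ± 439.7 CPM in WT mice (SD, n = 6), a log2FC of 0.44 (SE 0.12, unadjusted p = 0.00403, edgeR adjusted p = 0.246), with p = 0.0281 by the exact permutation test. Its call was gained without mice 16 and 55 (log2FC 0.51, edgeR adjusted p = 0.0245; 0.693% of genes called). DESeq2 and the covariate for read pairs on no gene gave adjusted p of 0.0402 and 0.0174 at log2FC of 0.44 and 0.49, which are under the limit of 0.5.

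Miat had a log2FC of 1.51 over both activity groups (SE 0.52, unadjusted p = 0.0129, edgeR adjusted p = 0.372; exact permutation p = 0.0801), and 0.33 (edgeR adjusted p = 0.662) without mice 16 and 55. Malat1 was at 15321 ± 3031 CPM in SCA1 and 18472 ± 1576 CPM in WT mice (SD, n = 6), with a log2FC of −0.27 (edgeR adjusted p = 0.571; exact permutation p = 0.0216), and of −0.14 without mice 16 and 55. Rian had a log2FC of 0.20 (edgeR adjusted p = 0.532; exact permutation p = 0.0801), and of 0.31 (edgeR adjusted p = 0.0551) without mice 16 and 55. None of the 7 was without overlap between the 6 SCA1 and the 6 WT mice, beside 1.17% of all genes.

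Running was compared within each genotype. Between WT exercise and WT sedentary mice 0 of the 7 passed, beside 0% of all genes in the edgeR fit of all 4 groups. In that fit Meg3 was the only one of the 7 with an unadjusted p under 0.05, beside 4.69%. With edgeR on the WT groups alone 0 of the 7 passed and 150 of 19301 genes were called. There 3 of the 7 had an unadjusted p under 0.05, as did 3196 of all genes. DESeq2 called 63 of 35145 genes, and edgeR without mice 16 and 55 called 0.312%, with 0 of the 7 in each. Mouse by mouse the Meg3 values given above overlapped, since WT exercise mouse 121 (2048 CPM) lay below WT sedentary mouse 192 (2112 CPM), and the other 2 exercise mice lay above all sedentary ones. The log2FC was 0.40 (SE 0.18, unadjusted p = 0.0412, edgeR adjusted p = 0.958; exact permutation p = 0.2). Malat1 had a log2FC of 0.16 (edgeR adjusted p = 0.958), and −0.01 when all read pairs of a library, in place of those on genes, were its size. Miat had a log2FC of −0.67 (SE 0.73, edgeR adjusted p = 0.958), and of −0.13 without sedentary mouse 192. The remaining 4 lay between −0.10 and 0.10, and 0 of 7 were without overlap, beside 21.2% of all genes.

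Between SCA1 exercise and SCA1 sedentary mice 0 of the 7 passed, beside 0% of all genes. With all mice 0 had an unadjusted p under 0.05 with edgeR or DESeq2, beside 2.17% with edgeR. The latter count was 2 of 7 with edgeR without mice 16 and 55, beside 8.79% of all genes. Meg3 was at 2545 ± 63.2 CPM in SCA1 exercise mice (SD, n = 3), below the mean of SCA1 sedentary mice, but SCA1 sedentary mouse 16 (2514 CPM) lay among the exercise mice. The log2FC was −0.32 (SE 0.18, edgeR adjusted p = 0.999; exact permutation p = 0.3), and −0.48 (edgeR adjusted p = 0.565) without mice 16 and 55. Malat1 had a log2FC of 0.07 with all mice and −0.20 without mice 16 and 55. Miat had a log2FC of −0.65 (SE 0.71, edgeR adjusted p = 0.999), in which each group contains 1 of the 2 mice with high brainstem markers. The remaining 4 lay between −0.18 and 0.02, and 0 of 7 were without overlap, beside 4.5% of all genes.

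The difference between the responses of the genotypes to running was tested as an interaction. None of the 7 passed, beside 0% of all genes, and with all 12 mice Meg3 alone had an unadjusted p under 0.05, beside 3.78%. Its interaction was −0.72 on the log2 scale (SE 0.25, unadjusted p = 0.0135, edgeR adjusted p = 1.00), that is, 0.40 in WT and −0.32 in SCA1 mice. Without mice 16 and 55 it was −0.89 with an adjusted p of 0.164. DESeq2 likewise called 0 of the 7 in the interaction and between the WT groups. The other 6 interactions lay between −0.11 and 0.03 with all mice, and those of Malat1 and Miat moved when mice were left out. The interaction of Malat1 was −0.36 without mice 16 and 55 (unadjusted p = 0.0130, edgeR adjusted p = 0.233) and −0.33 without mouse 16 alone (unadjusted p = 0.0384, edgeR adjusted p = 0.290). Without both mice 14.8% of all genes had an unadjusted p under 0.05, and Neat1 had an interaction of −0.33 (edgeR adjusted p = 0.502), Snhg11 of −0.18, Mirg of −0.08, Rian of −0.03 and Miat of 0.00176. For Miat it was 1.21 without mouse 16 alone and −1.15 without mouse 55 alone (edgeR adjusted p = 0.490 and 0.959). Averaged over genotypes, running gave log2FC between −0.66 for Miat (edgeR adjusted p = 0.945) and 0.11, with 0 of 7 passing, beside 0% of all genes. With all mice 0 were at an unadjusted p under 0.05 with edgeR or DESeq2, beside 3.54% with edgeR. That count was 2 of 7 with edgeR without mice 16 and 55, beside 6.48% of all genes. The value of Miat ranged from −1.24 without mouse 55 to −0.07 without mouse 16. None of the 7 was without overlap between the 6 exercise and the 6 sedentary mice, beside 0.128% of all genes.

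Meg3, Rian and Mirg are often treated as pieces of 1 long transcript, so their levels were also compared within each library. Per kb of exon, Rian was at 25.6%, 19.4% and 16.6% of Meg3 in WT sedentary mice 116, 117 and 192. It was at 15.4%, 10.9% and 15.0% of Meg3 in SCA1 sedentary mice 16, 194 and 195. All 3 SCA1 values were lower, and the log2 ratio differed by −0.57 (two-sided exact permutation test, p = 0.1, the smallest possible). Mirg was at 12.4%, 7.40% and 8.59% of Meg3 in WT sedentary and at 5.68%, 6.01% and 6.60% in SCA1 sedentary mice, again without overlap, with a difference of −0.60 (p = 0.1 by the same exact permutation test). Both ratios have Meg3 as the divisor, so they are not independent of the difference in Meg3 between the same mice. How often ratios of other genes lacked overlap was not computed. Between the WT groups the 3 exercise mice, at 7.36%, 6.46% and 7.01%, also lay below the 3 sedentary mice for Mirg relative to Meg3 (difference −0.41, exact permutation p = 0.1), whereas Rian relative to Meg3 overlapped (exact permutation p = 0.2).

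Mirg relative to Rian lay between 36.8% and 55.4% in the 12 mice and overlapped between sedentary genotypes (difference in log2 ratio −0.03, exact permutation p = 0.9). In exercise mice Rian was at 16.3% ± 1.49 of Meg3 in WT and 17.2% ± 3.22 in SCA1 mice (SD, n = 3), and Mirg at 6.94% ± 0.450 and 7.48% ± 2.20. Both ratios overlapped between exercise genotypes, with exact permutation p of 0.8 and 0.9. Over the 12 libraries the log2 CPM of Rian and Mirg correlated with r = 0.68, of Meg3 and Rian with r = 0.50 and of Meg3 and Mirg with r = 0.45. These are descriptions over libraries that share depth and dissection.

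**Figure D3:**
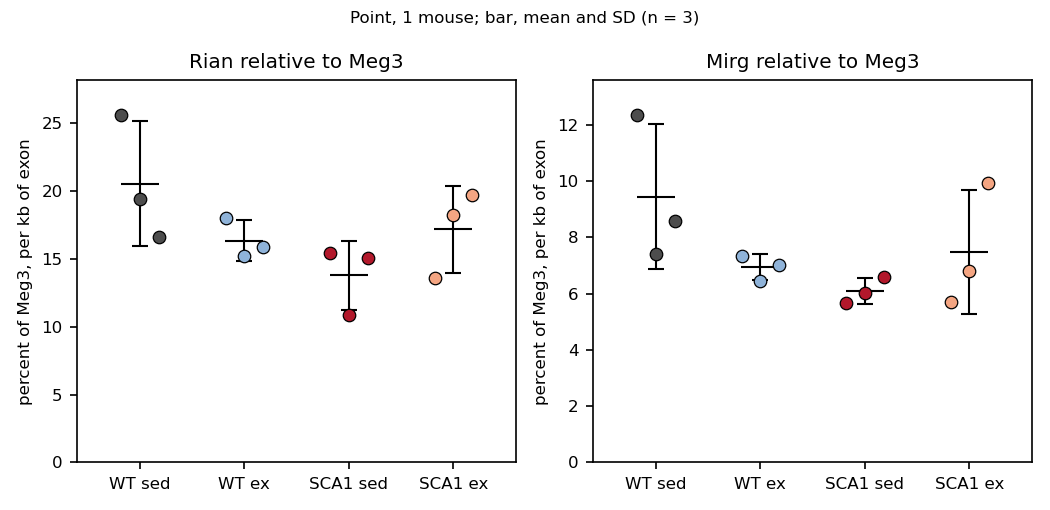
Level of Rian (left) and Mirg (right) as a percent of Meg3 in the same library, per kb of exon (vertical axes from 0), in the 4 groups; points are mice and bars the mean and SD of 3. In both panels the 3 SCA1 sedentary mice lie below the 3 WT sedentary mice, and the exercise genotypes overlap.

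Of the 11 genes listed for the domain and its edges, 8 were tested, and with all 12 mice 0 passed in any of the 7 comparisons. Between sedentary groups 7 of the 8 had a log2FC above 0, with a median of 0.37 beside 0.02 over all genes, and 2 had an unadjusted p under 0.05, Meg3 and Dlk1, beside 10.1% of all genes. Without mice 16 and 55 the median was 0.28, Meg3 passed, and 4 had an unadjusted p under 0.05 (Meg3, Dlk1, Rian and Mirg), beside 20.2% of all genes. Dlk1, the paternally expressed Notch-like ligand 77.6 kb before Meg3, was at 0.347, 0.171 and 0.717 CPM in WT sedentary and at 43.9, 8.75 and 0.241 CPM in SCA1 sedentary mice. It was at 6.62, 0.668 and 2.30 CPM in WT exercise and at 23.5, 0.125 and 0.60 CPM in SCA1 exercise mice. Mice 16 and 55 had the highest values, and the log2FC between sedentary groups was 5.40 (SE 1.86, unadjusted p = 0.0129, edgeR adjusted p = 0.359), and 3.46 (edgeR adjusted p = 0.102) without them.

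Begain, a postsynaptic scaffold protein gene at the Dlk1 side, was at 16.6, 13.97 and 22.2 CPM in WT sedentary and at 70.3, 24.0 and 14.6 CPM in SCA1 sedentary mice, and mouse 55 had 41.2 CPM. Wdr25 was at 11.02 CPM in mouse 16, 8.97 CPM in mouse 55 and 7.40 CPM or less in the others. Dlk1, Begain and Wdr25 were thus highest in the 2 mice with high brainstem markers, whereas Meg3 in these 2 mice lay near the median of all mice, 2524 CPM. Between sedentary groups the log2FC of Begain was 1.05 with all mice and 0.16 without mice 16 and 55, and that of Wdr25 0.51 and 0.24, with edgeR adjusted p from 0.429 to 0.700. Dio3os, beside the thyroid hormone-inactivating enzyme gene Dio3, was at 0.714 CPM or less. Rtl1, Rtl1as and Dio3 were not among the genes tested. The nearest tested coding gene on the other side, Ppp2r5c, 698 kb after Mirg, had a log2FC of 0.03 between sedentary groups.

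Inside Rian, 4 microRNA and 13 small nucleolar RNA genes are annotated on the same strand. Their counts over all libraries came to 1.81% and 0.562% of those of Rian. Inside Mirg, 14 microRNA genes held 10.7% as many counts as Mirg. In Snhg11, the 2 small nucleolar RNA genes held 0.384% as many. Since STAR counts a read pair only when it overlaps 1 gene, pairs over both a host exon and a small RNA gene are missing from both, and fragments of this length do not measure mature small RNAs.

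Factors that set or read the imprint of the domain were listed with it, among them DNA methyltransferases, Polycomb proteins, Trim28 and Creb1. Of 17 tested, 0 passed between sedentary groups, with 7 higher and 10 lower and a median log2FC of −0.08. At an unadjusted p under 0.05 it was 1 higher and 4 lower, beside 10.1% of all genes, and 4 higher and 0 lower without mice 16 and 55, beside 20.2%. With all mice the smallest p were those of Aff3 (log2FC 0.42), a reader of the domain's methylated control region, and of the Polycomb genes Eed (−0.29) and Ezh2 (−0.35), each with an adjusted p of 0.456 or more by edgeR. Of 34 other imprinted genes, 24 were higher and 10 lower, with a median log2FC of 0.24 beside 0.02 for all genes. None of the 34 passed, and 6 higher and 0 lower had an unadjusted p under 0.05, beside 10.1% of all genes. Without mice 16 and 55 the median of the 34 was 0.05, 7 higher and 3 lower had such a p, beside 20.2%, and Igf2 passed (log2FC 1.95, edgeR adjusted p = 0.0462). The 3 with the smallest p were Grb10 (0.53, adjusted p = 0.197), an adaptor of insulin signalling, Igf2 (2.06, adjusted p = 0.242) and Peg3 (0.42, adjusted p = 0.251, all with edgeR). Igf2 is known to be made by choroid plexus and meninges, and the summed choroid plexus markers ranged from 13.3 to 408 CPM in WT sedentary and from 14.5 to 1160 CPM in SCA1 sedentary mice. Their part in the value of Igf2 was not tested.

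Miat was highest in the 2 mice with high brainstem markers, and its relation to these markers rests on them. The same 2 mice had the highest sums of oligodendrocyte markers, 6684 and 5359 CPM, compared with 4052 CPM or less in the other 10. In mice 16 and 55 Miat was at 134 and 85.6 CPM, Slc6a5, the glycine transporter of hindbrain and spinal neurons, at 184 and 144 CPM, and Hoxb5, a positional gene of the caudal hindbrain, at 8.33 and 9.92 CPM. In the other 10 mice Miat was at 37.3 CPM or less, Slc6a5 at 54.8 CPM or less and Hoxb5 at 0.970 CPM or less. With the brainstem marker sum as a covariate, which mainly sets mice 16 and 55 apart, the log2FC of Miat was 0.44 between sedentary and 0.09 between exercise groups. Without the covariate it was 1.49 and 1.52. The 2 next highest Miat values, in SCA1 sedentary mouse 194 (37.3 CPM) and WT sedentary mouse 192 (36.5 CPM), came with marker sums of 60.4 and 71.6 CPM. In mouse 192 the sum was almost all Slc6a5 (30.6 CPM) and Slc17a6 (40.9 CPM). SCA1 exercise mouse 198 had a higher sum, 77.1 CPM, and 21.5 CPM of Miat.

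**Figure D4:**
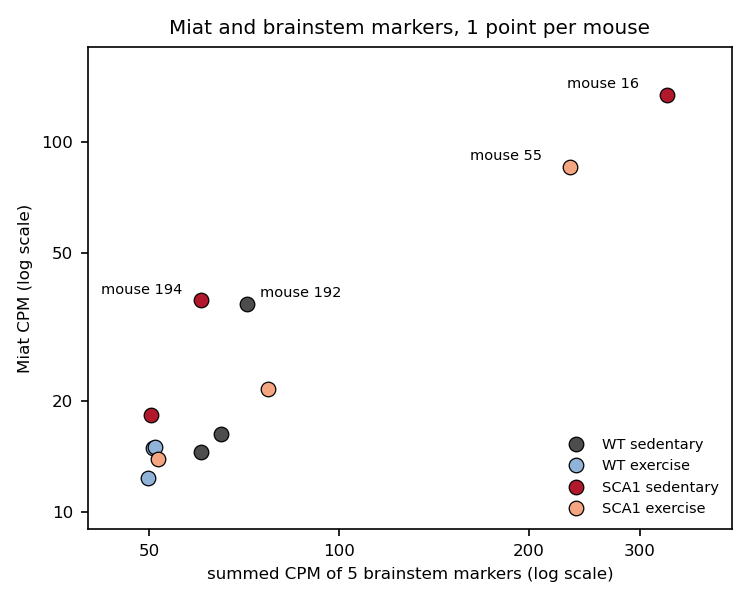
Miat CPM (vertical axis, log scale) against the summed CPM of 5 brainstem markers (horizontal axis, log scale); each point is 1 mouse, coloured by group. Mice 16 and 55 lie at 331 and 233 CPM of markers with 134 and 85.6 CPM of Miat, and the other 10 mice lie at 77.1 CPM or less of markers.

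Of 19 tested genes of nuclear speckles and binding partners of Miat, 0 passed between sedentary groups with all mice, beside 0.0344% of all genes. Of these 9 were higher and 10 lower, with a median log2FC of −0.03. The smallest p belonged to Celf3 (log2FC 0.37, edgeR adjusted p = 0.570), a splicing regulator that is known to share foci with Miat. Without mice 16 and 55 Celf3 passed (log2FC 0.63, edgeR adjusted p = 0.0317), beside 1% of all genes, with 14 of the 19 higher and a median of 0.12. Of the 19, 5 then had an unadjusted p under 0.05 (26.3%), near the 20.2% of all genes. Of 25 paraspeckle protein genes, which build bodies on Neat1, 0 passed with all mice, with 9 higher and 16 lower and a median of −0.04. Celf6 alone had an unadjusted p under 0.05 (log2FC 1.22, edgeR adjusted p = 0.387), beside 10.1% of all genes. Without mice 16 and 55 the direction turned, with 15 of the 25 higher and 10 lower, a median of 0.06 and 0 past the thresholds. Then 6 higher and 1 lower had an unadjusted p under 0.05 (28%), beside 20.2% of all genes. Of 15 genes for RNase P, RNase Z and other factors that form 3′ ends, 0 passed with all mice. With edgeR 0 had an unadjusted p under 0.05, beside 10.1% of all genes, and 5 were higher and 10 lower with a median of −0.09. Without mice 16 and 55, 0 passed, 7 were higher and 8 lower, the median was −0.17, and 3 had such a p (20%), beside 20.2%. Of 22 host genes of small nucleolar RNAs, Snhg11 and Meg3 included, 0 passed with all mice, with 5 higher and 17 lower and a median of −0.09. At an unadjusted p under 0.05 it was 1 higher and 1 lower, beside 10.1% of all genes. Without mice 16 and 55 Meg3 alone passed, beside 1% of all genes, with 9 higher and 13 lower and a median of −0.12. Then 2 higher and 5 lower had such a p (31.8%), beside 20.2%. With all mice Meg3 had the smallest p of the list (log2FC 0.80, edgeR adjusted p = 0.162), and Snhg3 the next (log2FC −0.56, edgeR adjusted p = 0.392). Of 30 other long noncoding RNAs of brain, 0 passed with all mice, with 16 higher and 14 lower and a median of 0.05. Without mice 16 and 55, 0 passed, with 15 higher and 15 lower and a median of −0.03.

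In the other comparisons these lists gave 0 genes past the thresholds as well with all mice, and without mice 16 and 55 Meg3 alone passed, over both activity groups. Between WT exercise and WT sedentary mice 4 of the 15 genes for 3′ ends had an unadjusted p under 0.05, beside 4.69% of all genes, all 4 lower, with the smallest p for the RNase P subunits Pop5 (−0.45), Rpp25 (−1.17) and Rpp21 (−0.42), each with an adjusted p of 0.958 by edgeR. Of the 22 host genes 15 were lower in that comparison, with a median of −0.22. Apart from Meg3, whose values are given above, Snhg3 (−0.60), Epb41l4aos (−0.54) and Zfas1 (−0.62) had the smallest p, each with an adjusted p of 0.958 by edgeR. Snhg11 itself had a log2FC of 0.08.

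The neighbours of the other RNAs were also read. Frmd8, 2.60 kb from Neat1, had a log2FC of 0.33 between sedentary groups (edgeR adjusted p = 0.608). Mn1, 756 kb from Miat, had 0.75 and Crybb1, 23.5 kb from it, −0.25 (adjusted p = 0.632 and 0.910 with edgeR). Of the genes beside Snhg11, Ralgapb had −0.13 and Lbp 1.88 (unadjusted p = 0.00186, edgeR adjusted p = 0.231), which was 1.90 with an adjusted p of 0.0384 without mice 16 and 55, and Lbp had 2.81 between the WT groups (unadjusted p = 7.59e-05, edgeR adjusted p = 0.332). Snhg11, 42.8 kb from Lbp, had 0.10 and 0.08 in the same comparisons.

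The share of read pairs on no gene differs between libraries and can include intronic and nuclear RNA, so the level of each RNA was set against it over the 12 libraries. Of the 7, 3 correlated with it by Pearson's r at an adjusted p under 0.05 (permutation test with 100000 draws, adjusted over 7). Malat1 had r = 0.75 (permutation p = 0.00555, adjusted 0.0178) and rho = 0.56 (permutation p = 0.0627, adjusted 0.132). Miat had r = −0.76 (permutation p = 0.00563, adjusted 0.0178) and rho = −0.44 (permutation p = 0.154, adjusted 0.180). Snhg11 had r = 0.72 (permutation p = 0.00763, adjusted 0.0178) and rho = 0.66 (permutation p = 0.0240, adjusted 0.0839).

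The relation of Malat1 and Miat to this share rested on mice 16 and 55, which are the 2 libraries farthest from its median. Without them r was 0.38 for Malat1, −0.17 for Miat and 0.68 for Snhg11 (permutation p = 0.281, 0.645 and 0.0301), and 0 of 7 passed after adjustment. Meg3 went the other way, with r = 0.37 over 12 libraries and 0.77 (permutation p = 0.00973, adjusted 0.0681) without these 2, and rho of 0.48 and 0.82 (permutation p = 0.115 and 0.00569, adjusted 0.161 and 0.0199). For Rian r was 0.56 and 0.63, and rho was 0.78 and 0.83 (permutation p = 0.00366 and 0.00480, adjusted 0.0256 and 0.0199). Mirg had r of 0.52 and 0.24, and Neat1 of −0.27 and 0.04. With group means removed from both measures, 6 of 7 passed by r, all but Neat1, from 0.67 for Meg3 to 0.80 for Malat1 and −0.81 for Miat.

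The relation also depended on the library size. CPM divides by the counts on genes, which are fewer where more read pairs fall on no gene. With counts divided by all read pairs of a library, r was 0.39 for Malat1, 0.10 for Snhg11, −0.22 for Rian, −0.00739 for Meg3 and 0.00205 for Mirg (permutation p from 0.202 to 0.995). Miat had r = −0.80 (permutation p = 0.00266, adjusted 0.0186) and was then the only one of the 7 that passed, and Neat1 had r = −0.65 (permutation p = 0.0214, adjusted 0.0750).

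**Figure D5:**
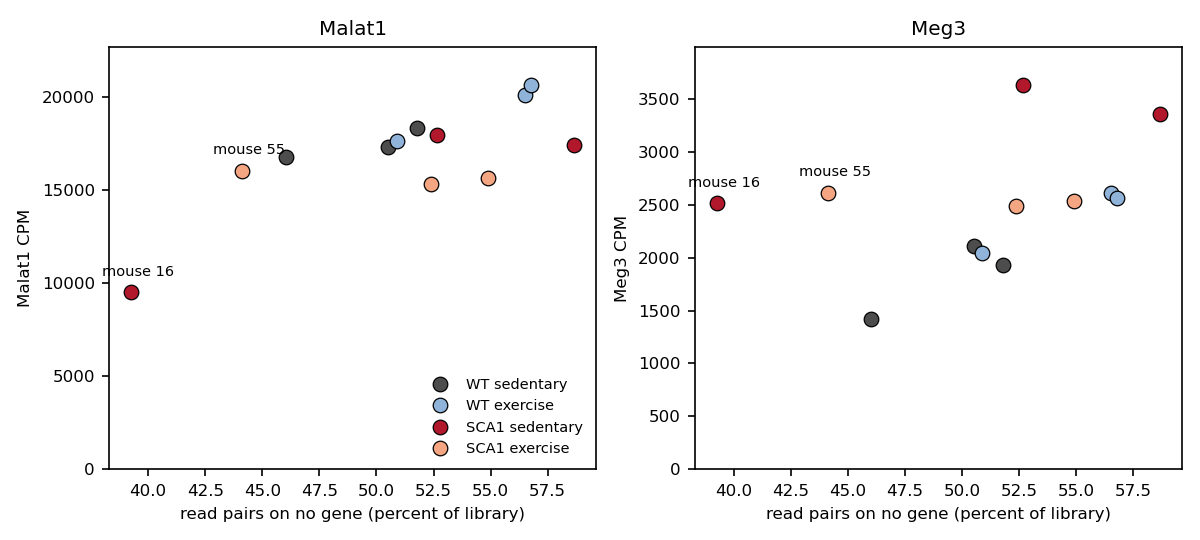
CPM of Malat1 (left) and Meg3 (right), vertical axes from 0, against the percent of read pairs on no gene (horizontal axis); each point is 1 mouse, coloured by group. Mouse 16 has the lowest share, 39.3%, and the lowest Malat1, 9504 CPM, whereas its Meg3 lies near the middle of all mice, and 2 SCA1 sedentary mice lie above every other mouse for Meg3.

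For each RNA the genes with the most similar profile over the 12 libraries were taken, up to 3 of them, from 11140 genes with an average log2 CPM of at least 3, as a description with no test. Meg3 was most like Itsn1 (r = 0.97), an endocytic scaffold, Zfhx2 (0.93) and Dst (0.93), and these were 0.99, 0.96 and 0.97 without mice 16 and 55. Miat was most like Epha10 (0.99), Src (0.98) and Rasgrf2 (0.98), which were 0.96, 0.97 and 0.93 without these mice. Malat1 was most like Tmem108 (0.97), 4632418H02Rik and Per3 (both 0.95), which were 0.90, 0.84 and 0.77 without them. Rian was most like Creb5 (0.93), Ankrd44 and Pde3a (both 0.90), Mirg like Hdac1 (0.95), Brd9 (0.94) and Acot8 (0.92), Neat1 like Gm22009 (0.97) and Emc9 (0.89), and Snhg11 like Gm42969 and Abcc5 (both 0.92) and Gm15941 (0.91). None of the 7 was among the 3 nearest genes of another.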

How the data were processed

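Total cerebellar RNA of 12 mice was depleted of ribosomal RNA and sequenced as stranded read pairs. The authors checked reads with FastQC 0.11.9, used fastp 0.24.0 on files rich in adapter sequence, aligned reads to GRCm39 with STAR 2.7.10a (versions per the labels) and deposited STAR's raw gene counts (read pairs, for both strands together and for each), not normalized. The annotation release is not given in the sources used here. RNA integrity was lower for 2 samples, whose libraries had another fragmentation time and number of PCR cycles, and the table that marks them was not used here. The CPM and log2 values are not the authors' and were derived from these deposited counts.

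Of 56941 genes, 56323 matched GENCODE M39. In R 4.3.3, reverse-strand counts were filtered (filterByExpr), scaled by TMM and fitted in edgeR 4.0.16, 1 quasi-likelihood model of 4 groups and 7 contrasts, with Benjamini-Hochberg adjustment over 20341 genes. For the 7 RNAs, log2 CPM (prior count 2) was tested by two-sided exact permutation of mice. The fit was tested on simulated data. Sequences were read from the GRCm39 genome and from RefSeq promoters. The 7 RNAs, the gene lists, the named genes (all 7, the genes of the domain, up to 3 of each list by p, nearest coding neighbours and the 3 most similar profiles) and the tests were chosen with earlier results of these data known. A neighbouring gene and a gene of similar profile that these rules name are not reported here. Each pair of groups had 24 alternatives (DESeq2 1.42.0, other scalings and filters, unstranded counts, covariates, and fits that left out 1 of the 12 mice), to which the brainstem covariate and the gene lists without mice 16 and 55 were added after the values were seen.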

Additional observations from a re-analysis of the deposited data

Results flagged for a closer look

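Counts on the strand opposite to each RNA were used in no comparison. They are given here as a percent of the counts on both strands, with 95% Wilson intervals that cover counting error only, wherever the lower bound exceeded the highest of the 6 WT libraries. In SCA1 sedentary mouse 16 this held for 6 of the 7 RNAs, with 0.178% for Malat1 (480 read pairs, interval 0.163% to 0.195%, at most 0.0605% in WT), 0.421% for Neat1, 0.205% for Meg3, 0.290% for Rian, 0.492% for Mirg (10 read pairs) and 0.233% for Snhg11. In SCA1 exercise mouse 55 it held for Malat1 (0.0744%), Meg3 (0.132%) and Rian (0.182%). The other values above WT were 0.554% for Neat1 in SCA1 sedentary mouse 195 (14 read pairs), 0.194% for Mirg in SCA1 sedentary mouse 194 (5 read pairs) and 0.110% for Snhg11 in SCA1 exercise mouse 122. Over whole libraries the percent was 5.70 in mouse 16 and 5.64 in mouse 55, and 5.54 to 5.79 in the 6 WT libraries. Mice 16 and 55 are also the 2 libraries with the highest shares of read pairs mapped to several places, 6.38% and 6.33%, and the part of such read pairs in these values was not tested. Gm37376, annotated opposite to Malat1, had 231 counts and Gm26953, opposite to Miat, 27 counts over all 12 libraries. Frmd8os, opposite to Neat1, had 484 counts, Rtl1, opposite to Rian, 135 and Gm54371, opposite to Mirg, 1. Of the Rtl1 counts 92 were in mouse 16 and 27 in mouse 55, with 4 or fewer in each other library. The part of these antisense genes in the values above was not tested.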

How the results depend on the processing

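No paired analysis was possible because the groups share no mouse numbers. The number of the 7 RNAs past the thresholds, 0 between sedentary groups, was 1 (Meg3) with DESeq2 on all 12 libraries, with the no-gene share as a covariate, without mice 16 and 55, and with the brainstem marker sum as a covariate, which was chosen after seeing the data. Over both activity groups it was 1 (Meg3) without mice 16 and 55. In the other 5 comparisons it was 0 under every alternative run, and it was 0 in all 7 comparisons with each mouse left out in turn. The number correlated with the no-gene share, 3, was 0 without mice 16 and 55 (the 2 libraries farthest from the median), 6 with group means removed and 1 with all read pairs as library size, and lay between 0 and 3 with each mouse left out, with 0 only without mouse 16.

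Over all 49 log2FC and 1155 refitted values, 125 changed sign, and apart from Miat these belonged to log2FC of at most 0.22 in size. Malat1 changed sign between sedentary groups without mice 16 and 55 (0.0369), between SCA1 groups without them (−0.20), and between WT groups with all read pairs as library size (−0.00515) or with the no-gene share as a covariate (−0.0269), which also turned Miat between WT groups (0.10). With 1 mouse left out, the log2FC between sedentary groups lay between −0.39 and 0.0184 for Malat1 (above 0 without mouse 16), between −0.00132 and 0.26 for Neat1, between −0.0378 and 0.27 for Snhg11, between 0.65 (without WT mouse 116) and 0.94 for Meg3 and between 0.31 (without mouse 16) and 2.01 for Miat. Meg3 between exercise groups lay between −0.0314 and 0.14, and between SCA1 groups Malat1 lay between −0.18 and 0.23 and Miat between −1.81 and 0.54. Unstranded counts lose read pairs shared with antisense genes, and were 66.0% to 72.8% of the reverse-strand counts for Miat. With 3 mice a group, an exact test cannot give a p below 0.1.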
